A study of Mus musculus with 8 samples.

Results

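Peroxins are the proteins that build and divide peroxisomes, the organelles that shorten very long chain and branched fatty acids in liver. The 9 genes described here are Pex11a and Pex11g, which act in division, Pex3, Pex16 and Pex19, which insert membrane proteins, and Pex5, Pex7, Pex13 and Pex6, which carry out matrix protein import. They were taken as all probe sets of the array annotated to exactly 1 of these symbols, which gave 22 probe sets, 5 for the Pex11 pair and 17 for the other 7 genes, of 45037 tested. All 9 genes were found, of 18193 genes measured. Livers of mice aged 2 days were compared, 4 with the genotype Mfp2 -/- (KO) and 4 wild type (WT), with 1 Affymetrix array per mouse. Mfp2, encoded by Hsd17b4, is a multifunctional enzyme of peroxisomal beta-oxidation. The labels give the genotype of the animal and name the tissue as liver, and strain, sex, litter and feeding were not stated there. Values are on the log2 scale after RMA, a method that forces one common distribution on the arrays, so a difference of 1 is a 2-fold change and a change in total mRNA cannot be seen.

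A peroxisome grows by taking up proteins made in the cytosol and multiplies by elongation and fission. Pex19 binds new membrane proteins and Pex3, with Pex16, receives it at the membrane. Pex5 and Pex7 bind matrix proteins through targeting signals called PTS1 and PTS2 and dock at a complex that contains Pex13, and the ATPase Pex6 pulls Pex5 back out for another round. The Pex11 proteins shape the membrane before fission. In rodent liver Pex11a is known as the member of its family that is induced by peroxisome proliferators through the fatty acid receptor PPARalpha, whereas Pex11g is known as constitutively expressed there.

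The upstream sequences of the Pex11 pair are shown because these were the genes whose differences were most unlike within one family. They are the 250 bases before the annotated start, 5′ to 3′ on the gene's strand, from RefSeq on mouse build GRCm38.p6. Pex11a lies at chr7:79743132-79743381 on the minus strand and Pex11g at chr8:3467649-3467898 on the minus strand. Capitals mark matches, on either strand, to any of 5 short motifs searched, AGGTCA (the core bound by nuclear receptors), TGACGTCA (the cAMP response element), GGGCGG (the GC box), CCGGAAG (the ETS site) and CCAAT.
Pex11a: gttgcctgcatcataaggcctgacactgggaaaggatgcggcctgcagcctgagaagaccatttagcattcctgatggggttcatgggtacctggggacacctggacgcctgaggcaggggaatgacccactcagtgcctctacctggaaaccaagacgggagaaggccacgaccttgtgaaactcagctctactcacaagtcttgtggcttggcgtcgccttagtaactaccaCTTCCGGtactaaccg
Pex11g: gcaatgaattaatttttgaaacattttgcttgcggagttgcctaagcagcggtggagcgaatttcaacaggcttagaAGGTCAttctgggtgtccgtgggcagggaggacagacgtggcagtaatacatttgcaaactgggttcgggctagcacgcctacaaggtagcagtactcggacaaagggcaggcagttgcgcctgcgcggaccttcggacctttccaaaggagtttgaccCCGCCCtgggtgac
The capitals in Pex11a are an ETS match that begins 16 bases before the start, a motif held by 6.91% of 32851 promoter windows of the same length. In Pex11g the first capitals are the nuclear receptor core, 173 bases before the start and held by 14% of windows, and the second are a GC box, held by 32.7%. The direct repeat of AGGTCA with 1 base between, the form that PPARalpha binds, was searched as well. It is in none of the 11 windows of the 8 members that the table holds, and in 0.0335% of all windows. A match this rare was unlikely in 11 windows. Inexact repeats and sites beyond the 250 bases were not searched, so no conclusion on PPARalpha sites is drawn. Pex19 has no window in the table. These matches describe letters only, and the arrays measured no binding.

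The arrays matched their labels. The targeted gene Hsd17b4 had 4.29, 3.76, 3.25 and 4.05 in KO livers, against 8.18, 8.71, 8.97 and 8.15 in WT livers (probe set 1417369_at). The difference was -4.66 ± 0.25 (SE), with a limma adjusted p of 1e-04, and the groups lay far apart. The array medians were 3.68 to 3.73, and the KO mean of 3.84 lay close to them. Correlations between arrays were 0.983 to 0.993 within and 0.976 to 0.989 across genotypes. By Xist and Y-linked transcripts KO1, KO2 and WT3 were female and the other 5 livers male.

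No peroxin passed the threshold. Of the 22 probe sets 0 had an adjusted p under 0.05 in limma over all probe sets, where 0.762% of all probe sets did, and 2 had an unadjusted p under 0.05, a share no higher than the 11.7% of all probe sets. Both of these were the probe sets of Pex11a, which was about 1.7 to 1.9 times as high in KO livers by the group means. Means were higher in the KO for 21 of the 22, against 54.1% of all probe sets, and the median difference was 0.12, beside 0.02 over all probe sets. The groups overlapped in each of the 22, while 6.9% of all probe sets had groups that did not overlap. In these bulk samples fewer cells of a type and less RNA per cell cannot be told apart.

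**Figure D1:**
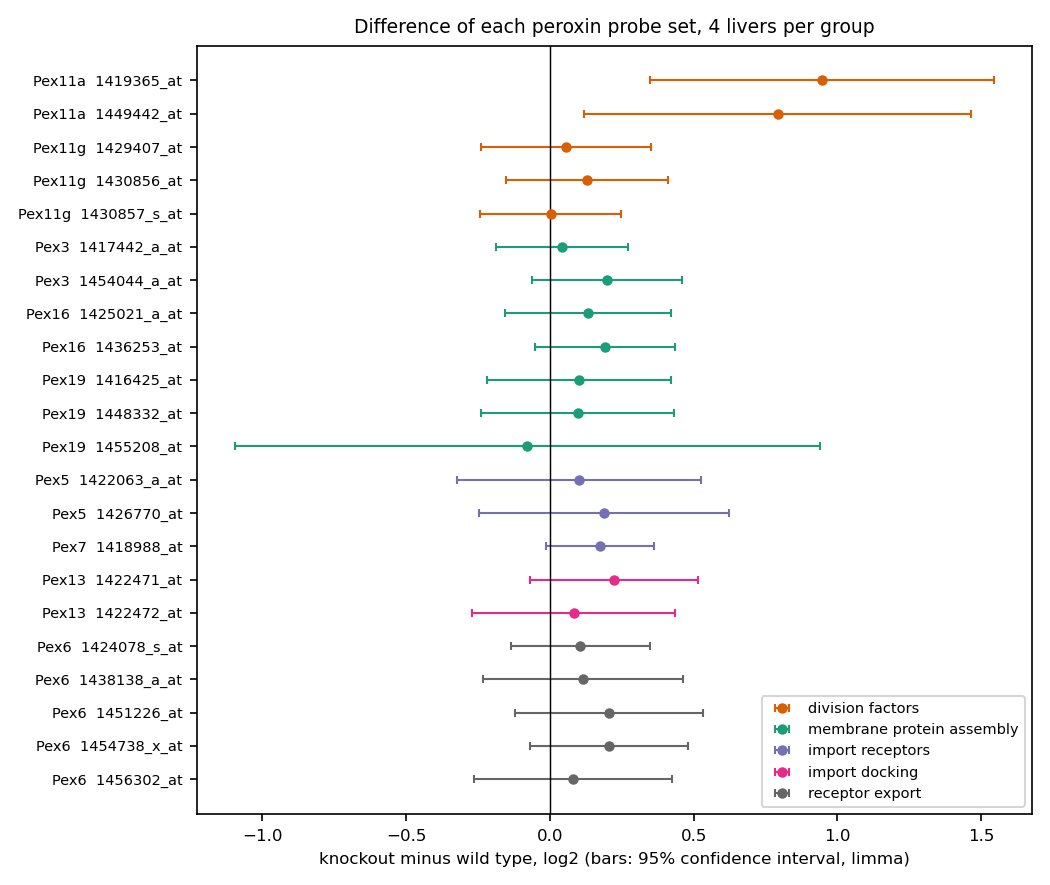
Knockout minus wild type difference on the log2 scale (x axis) for each of the 22 peroxin probe sets (y axis), with the 95% confidence interval of the limma fit, coloured by the gene's role, 4 livers per group. The intervals of the 2 Pex11a probe sets lie above 0 and the other 20 include 0.

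Pex11a, the proliferator-inducible division factor, had the largest differences among the members. Its probe set 1419365_at had 5.74, 5.03, 5.73 and 4.91 in KO livers, against 4.26, 5.08, 3.93 and 4.34 in WT livers. WT2 was higher than KO2 and KO4, so the groups overlapped, and the other 3 WT livers lay below every KO liver. The group means were 5.35 ± 0.44 in KO and 4.40 ± 0.49 in WT livers (SD, n = 4 each). The difference was 0.95 ± 0.27 (SE), or 1.93-fold with a 95% confidence interval of 1.27 to 2.92, and the limma adjusted p was 0.168.

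The second probe set of Pex11a, 1449442_at, had 6.67, 6.22, 7.74 and 6.95 in KO livers, against 5.57, 6.38, 6.07 and 6.41 in WT livers. KO3 was the highest liver by a wide margin, and KO2 was below WT2 and WT4. Here the difference was 0.79 ± 0.30 (SE), or 1.73-fold with an interval of 1.09 to 2.76, and a limma adjusted p of 0.328. Without KO3 it was 0.51 ± 0.23. Over the 8 livers the 2 probe sets had a Pearson correlation of 0.725, given as a description of arrays that share their RNA. Both agreed that WT2 was among the high WT livers and KO2 among the low KO livers.

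The Pex11a difference was also taken within each pair of replicate numbers, and the gap between the pairs was not tested. In replicates 3 and 4 it was 1.18 for 1419365_at and 1.11 for 1449442_at. In replicates 1 and 2 it was 0.71 and 0.48. Sex was unbalanced between these sets, since in replicates 1 and 2 both KO livers were female and both WT livers male. With the Y-linked mean as a covariate the differences were 1.00 ± 0.27 and 0.90 ± 0.26 (SE), with limma adjusted p of 0.153 and 0.174, so neither passed. Without WT2 the difference of 1419365_at was 1.17 ± 0.23, and its adjusted p of 0.0529 was the lowest of any alternative.

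Pex11g, the second division gene, had small differences with intervals around 0. Probe set 1429407_at had 6.21, 6.36, 6.22 and 6.00 in KO livers, against 5.91, 6.22, 6.44 and 6.01 in WT livers. The values of the groups were interleaved. Its difference was 0.06 ± 0.13 (SE), with a limma adjusted p of 0.928. The other probe sets differed by 0.13 ± 0.13 (1430856_at) and 0.00 ± 0.11 (1430857_s_at), the last of a type whose probes can match more than 1 transcript. The highest upper bound of the 3 intervals was 1.33-fold and the lowest lower bound 0.846-fold. The 3 probe sets did not follow each other across livers, with Pearson correlations from -0.678 to 0.415 over 8 livers, so their variation between livers was not shared.

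**Figure D2:**
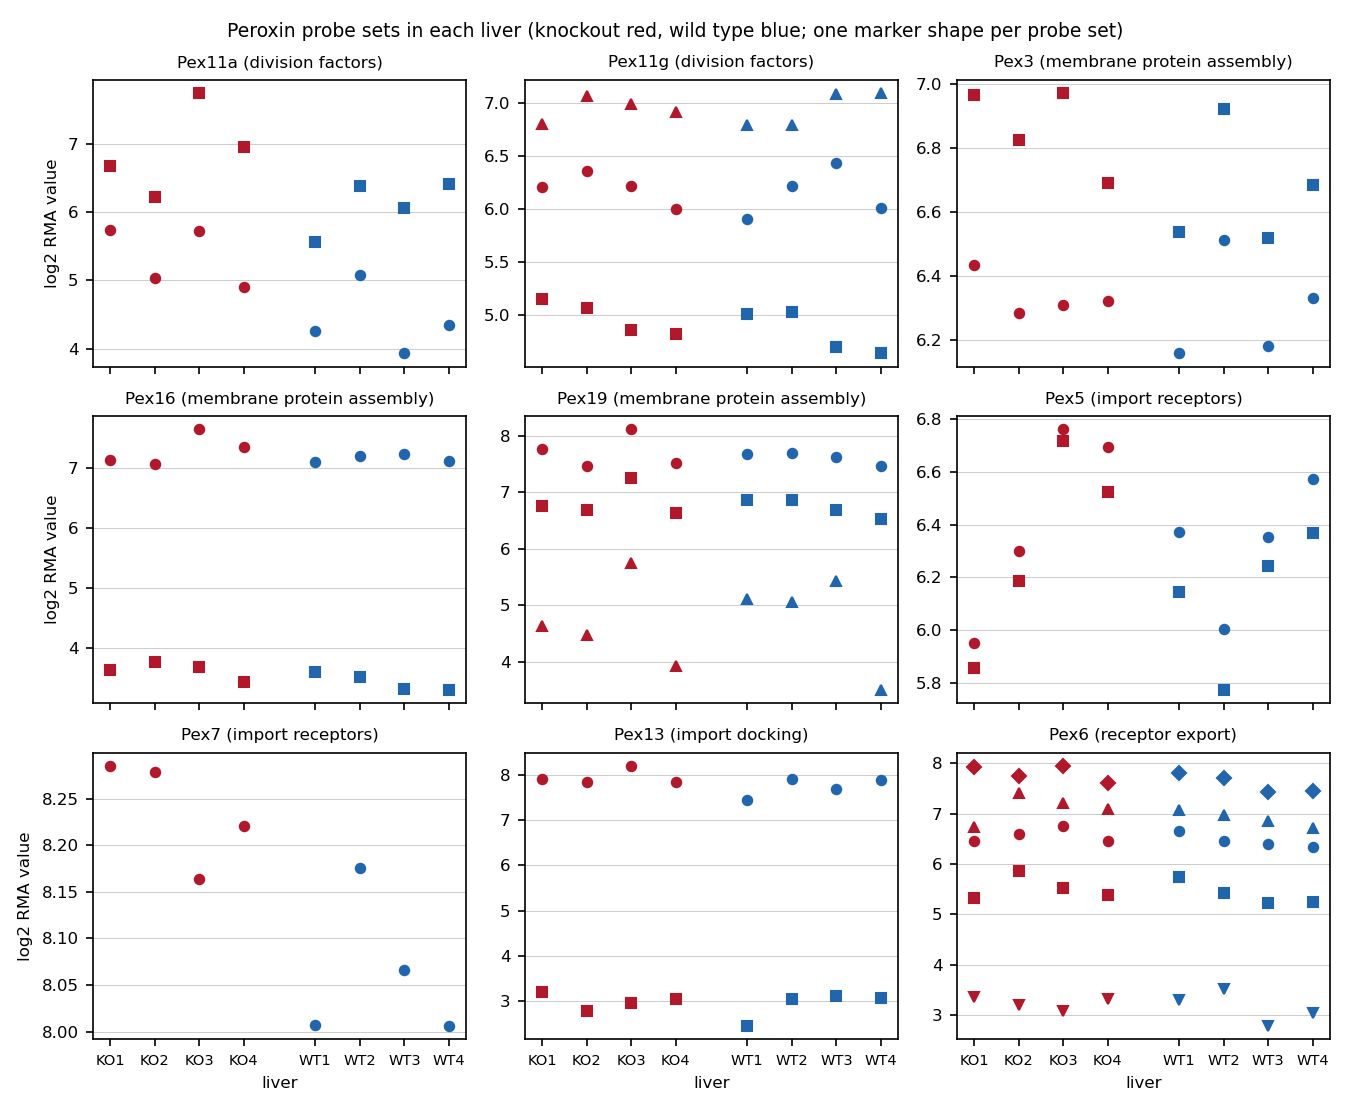
Log2 RMA value (y axis, scaled per panel) of every probe set of the 9 peroxin genes in each of the 8 livers (x axis), knockout in red and wild type in blue, with 1 marker shape per probe set. Pex11a lies higher in most knockout livers, and every probe set, those of Pex11a included, overlaps between the genotypes.

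The genes of membrane protein assembly showed small differences. Pex3, the membrane receptor for Pex19, had 6.96, 6.82, 6.97 and 6.69 in KO livers, against 6.54, 6.92, 6.52 and 6.68 in WT livers (1454044_a_at). WT2 again lay with the KO livers. The difference was 0.20 ± 0.12 (SE), with a limma adjusted p of 0.587, and that of the second probe set, 1417442_a_at, was 0.04 ± 0.10. Pex16, which recruits Pex3, had 7.14, 7.06, 7.64 and 7.34 in KO livers, against 7.10, 7.20, 7.24 and 7.10 in WT livers (1425021_a_at). KO3 was the highest, the difference was 0.13 ± 0.13, and it was 0.32 in replicates 3 and 4 and -0.05 in replicates 1 and 2. The other probe set of Pex16, 1436253_at, had a mean below the median of every array and differed by 0.19 ± 0.11.

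Pex19, the cytosolic carrier of membrane proteins, stood out by 1 liver. Probe set 1416425_at had 7.76, 7.47, 8.11 and 7.51 in KO livers, against 7.67, 7.69, 7.61 and 7.47 in WT livers. KO3 was above every other liver and the remaining 7 were interleaved. The difference was 0.10 ± 0.14 (SE), with a limma adjusted p of 0.861, and without KO3 it was -0.03. Probe set 1448332_at followed it closely, with a Pearson correlation of 0.94 over 8 livers and a difference of 0.10 ± 0.15. The third, 1455208_at, varied most of all 22, from 3.92 to 5.74 in KO and from 3.50 to 5.43 in WT livers. Its difference of -0.08 ± 0.46 was the only negative one and its interval the widest.

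Pex5, the import receptor for PTS1 proteins, was widely spread among the KO livers. It had 5.95, 6.30, 6.76 and 6.70 in KO livers, against 6.37, 6.00, 6.35 and 6.57 in WT livers (1422063_a_at). KO1 was the lowest liver and KO3 the highest, with the WT livers between them. The difference was 0.10 ± 0.19 (SE), with a limma adjusted p of 0.902. KO3 and KO4 were the highest and KO1 and WT2 the lowest livers also by the second probe set, 1426770_at, with a Pearson correlation of 0.977 over 8 livers and a difference of 0.19 ± 0.19. Both probe sets thus showed the spread of Pex5 among KO livers.

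Pex7, the import receptor for PTS2 proteins, varied little among livers of a genotype. Its single probe set had 8.29, 8.28, 8.16 and 8.22 in KO livers, against 8.01, 8.18, 8.07 and 8.01 in WT livers. Only WT2 reached into the KO range, above KO3. The means were 8.24 ± 0.06 in KO and 8.06 ± 0.08 in WT livers (SD, n = 4 each). The difference was 0.17 ± 0.08 (SE), or 1.13-fold with an interval of 0.989 to 1.29, and a limma adjusted p of 0.481, the lowest of the 7 membrane and import genes. It was 0.19 in replicates 1 and 2 and 0.16 in replicates 3 and 4.

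Pex13, a subunit of the docking complex, had 7.91, 7.83, 8.20 and 7.84 in KO livers, against 7.43, 7.90, 7.68 and 7.87 in WT livers (1422471_at). KO3 was the highest and WT1 the lowest, and WT2 and WT4 lay among the KO livers. The difference of 0.22 ± 0.13 (SE) was the largest of the 17 membrane and import probe sets, with a limma adjusted p of 0.584. A second probe set, 1422472_at, had a mean below the median of every array and differed by 0.08 ± 0.16. Pex6, the ATPase of receptor export, was measured by 5 probe sets, with differences from 0.08 to 0.21 and limma adjusted p from 0.595 to 0.906, and 1456302_at had a mean below the median of every array. Probe set 1454738_x_at had 7.92, 7.75, 7.95 and 7.60 in KO livers, against 7.82, 7.70, 7.43 and 7.45 in WT livers. KO1 and KO3 lay above every WT liver, while KO4 lay below WT1 and WT2. This type of probe set can pick up related transcripts, and 1451226_at, which carries no such mark, differed by 0.21 ± 0.15.

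**Figure D3:**
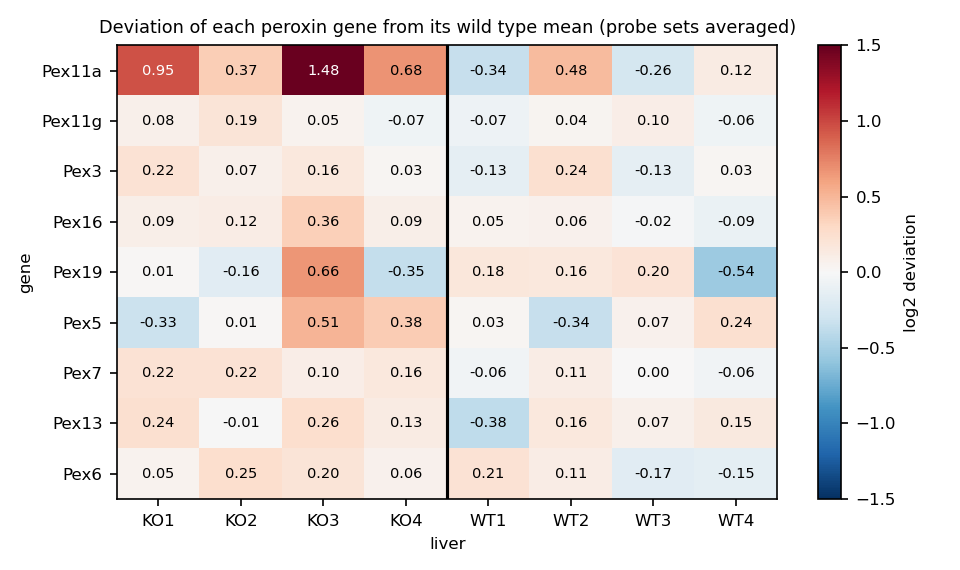
Deviation of each peroxin gene (rows) from its wild type mean in each liver (columns, knockout left of the line and wild type right), log2 scale, probe sets of a gene averaged. Pex11a reaches 1.48 in KO3, and the other genes stay between -0.54 and 0.66.

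Set against each other, the Pex11 pair and the 7 membrane and import genes were apart, and the distance lay in Pex11a. With each gene expressed as its deviation from the WT mean, the mean over Pex11a and Pex11g minus the mean over the 7 genes was 0.44, 0.21, 0.44 and 0.23 in KO livers, against -0.19, 0.19, -0.08 and 0.09 in WT livers. The groups did not overlap, though KO2 and WT2 were only just apart. This rested on averaging the probe sets of each gene. With only the probe set of highest mean per gene the groups overlapped, WT4 lying above KO1 and KO2, and the difference was 0.24. By Pex11a alone minus the 7 genes the groups overlapped. KO2 lay above WT2 in the pair score only through Pex11g, which relative to the 7 genes was 0.12 in KO2 and -0.03 in WT2. The KO mean was 0.33 ± 0.13 and the WT mean 0.00 ± 0.17 (SD, n = 4 each). No p is given for this score, because its members were chosen with results of these arrays known.

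Taken singly, the division genes parted. Pex11a minus the 7 genes was 0.88, 0.30, 1.16 and 0.61 in KO livers, against -0.33, 0.40, -0.26 and 0.18 in WT livers. Here WT2 lay above KO2. Pex11g minus the 7 genes was 0.01, 0.12, -0.27 and -0.14 in KO livers, against -0.06, -0.03, 0.10 and 0.00 in WT livers. The mean of this second score was -0.07 ± 0.17 in KO livers and 0.00 ± 0.07 in WT livers, so the pair's distance from the import genes was not seen in Pex11g.

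**Figure D4:**
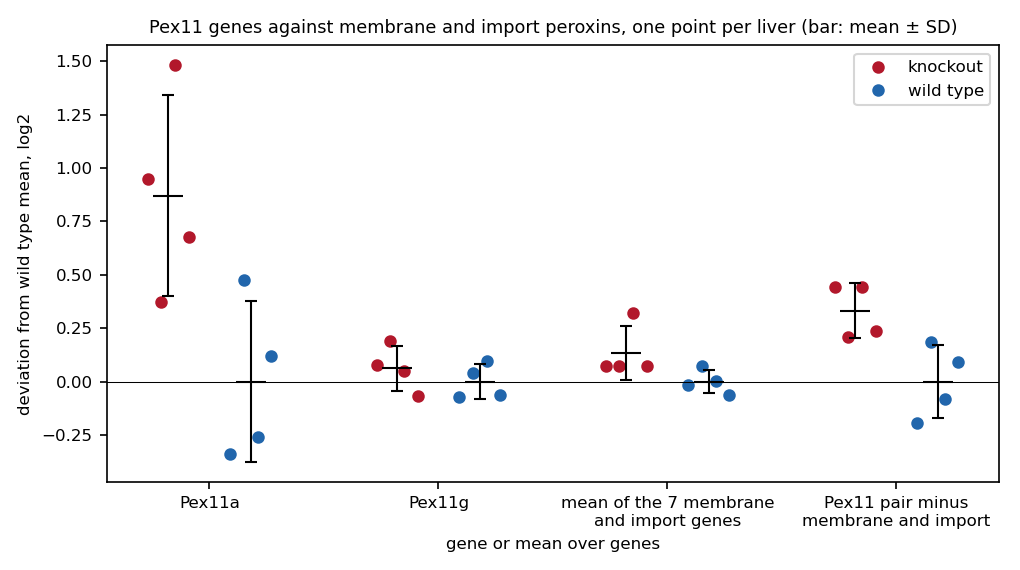
Log2 deviation from the wild type mean (y axis) for Pex11a, Pex11g, the mean of the 7 membrane and import genes, and the Pex11 pair minus that mean (x axis), 1 point per liver, knockout in red left of wild type in blue, with mean ± SD, n = 4 each. Pex11a averages 0.87 in the knockout and Pex11g 0.06.

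The 7 membrane and import genes lay slightly higher in the KO as a mean, though single genes fell below their WT mean in some KO livers. Their mean deviation was 0.07, 0.07, 0.32 and 0.07 in KO livers, against -0.01, 0.07, 0.00 and -0.06 in WT livers. KO3 was far above the other KO livers, and WT2 was as high as KO1, KO2 and KO4. The KO mean was 0.13 ± 0.12 with KO3 and 0.07 without it. Of the 17 probe sets 10 were highest in KO3 and 7 were lowest in WT4. Their median difference was 0.11 over all livers, 0.27 in replicates 3 and 4, and 0.02 in replicates 1 and 2. The intervals of 15 of the 17 had an upper bound under 1.5-fold, and the widest reached 1.92-fold in Pex19.

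Other peroxisome genes, from lists drawn up with earlier results known, held a few calls. Of 63 measured genes 4 passed higher and 0 lower, where 0.308% of all 18193 genes passed higher and 0.841% lower. An unadjusted p under 0.05 was found for 21 of the 63, beside 14.6% of all genes. The 4 were Phyh, the first enzyme of phytanic acid breakdown, at 0.79 ± 0.14 (SE), Acaa1a, a peroxisomal thiolase, at 0.56 ± 0.11, Mvk, the mevalonate kinase of sterol synthesis, at 1.00 ± 0.19, and Abcd2, a fatty acid transporter of the peroxisomal membrane, at 0.80 ± 0.13. Their limma adjusted p ran from 0.0352 to 0.0499. The first 3 were listed as PTS2 proteins, the cargo of Pex7, although Mvk also belongs to the sterol pathway, and Acaa1a has a close copy in Acaa1b that its probes may not separate. The 4 calls became 0 without KO4, WT1, WT3 or WT4, 1 without KO3 and 2 without KO1.

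The remaining assembly and division genes had no call. The 5 other peroxins that were measured had a median difference of 0.05, with 0 past the threshold in limma and 0 at an unadjusted p under 0.05. Pex26, the membrane anchor of Pex6, had a difference of 0.22 ± 0.14 (SE) and Pex14, the docking partner of Pex13, of 0.15 ± 0.10. In the fission machinery shared with mitochondria, which includes Dnm1l and Fis1, the median of 6 genes was 0.07, with 0 past the threshold and 0 at an unadjusted p under 0.05. The adaptors Mief2 and Gdap1 had the lowest p, with differences of 0.22 ± 0.11 and 0.18 ± 0.10, and the mean of Gdap1 lay below the median of every array. Over all genes the median was 0.01, so both lists lay close to the whole array.

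Cargo and membrane proteins held all 4 calls. The 6 genes listed as PTS2 proteins had a median difference of 0.56. Of these, 3 passed the threshold and 5 had an unadjusted p under 0.05, against 14.6% of all genes. The list holds 2 kinases of sterol synthesis, Mvk and Pmvk. Pmvk, named after its values were seen, differed by 0.57 ± 0.12 (SE), and its assignment to PTS2 is uncertain. For 15 PTS1 proteins, the cargo of Pex5, the median was 0.22, with 0 past the threshold in limma and 5 at an unadjusted p under 0.05, against the same 14.6%. Ehhadh, the bifunctional enzyme of peroxisomal beta-oxidation, had a difference of 1.43 ± 0.28 (SE) with a limma adjusted p of 0.0569, and Ech1, a dienoyl-CoA isomerase, of 0.52 ± 0.11 with 0.0683. Among the 11 genes listed as peroxisomal membrane proteins 1 passed and 6 had an unadjusted p under 0.05, and their median difference was 0.30. The list includes Abcd4 and Mpv17, named after their values were seen, whose place in peroxisomes is uncertain. They differed by 0.47 ± 0.11 and 0.12 ± 0.23 (SE). The 7 genes of proteases and receptor recycling had a median difference of 0.01. In limma 0 of them passed and 0 had an unadjusted p under 0.05, where Ube2d2a was at -0.19 ± 0.13 and Usp9x at 0.15 ± 0.13.

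Genes that remove peroxisomes and genes that set their number had no call either. Among 7 pexophagy genes 0 passed in limma and 5 had an unadjusted p under 0.05, in both directions, against 14.6% of all genes. Sqstm1, an autophagy receptor, was at 0.72 ± 0.17 (SE, adjusted p 0.0998) and Trim37, a ubiquitin ligase that stabilises Pex5, at -0.43 ± 0.12 (adjusted p 0.176). Of 6 regulators of peroxisome number, which include Ppara and Rxra, 0 passed and 0 had an unadjusted p under 0.05. Ppard was at 0.20 ± 0.11 and Ppargc1a at 0.45 ± 0.34, and Ppara, named after its values were seen, at 0.01 ± 0.17.

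**Figure D5:**
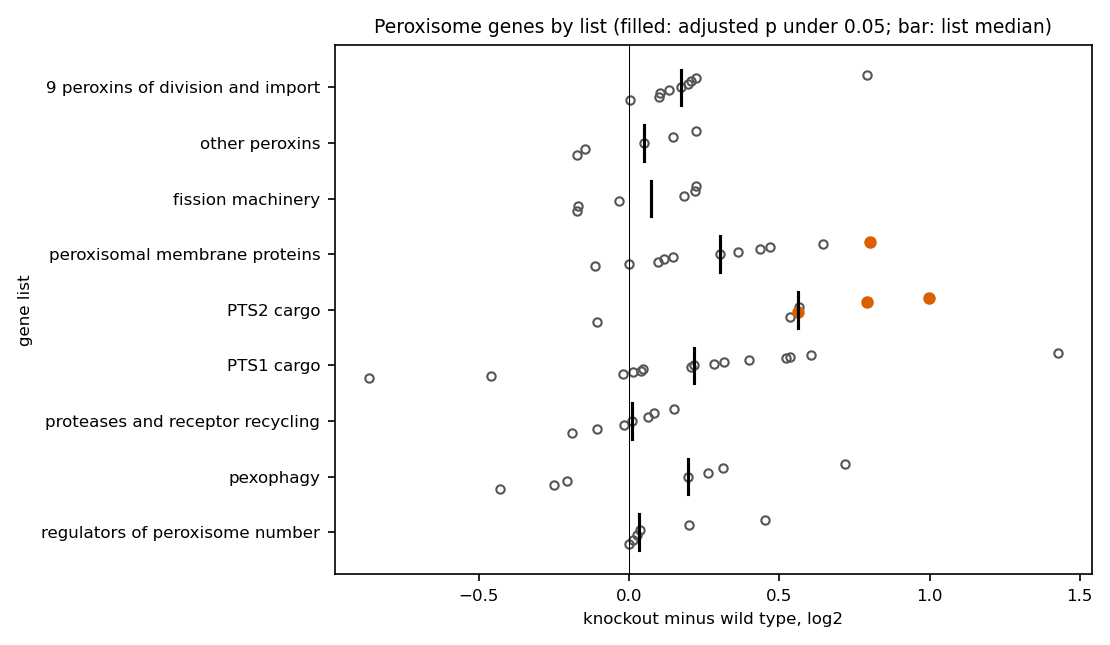
Knockout minus wild type difference on the log2 scale (x axis) of the 9 peroxins (probe set with the highest mean) and of 8 lists of other peroxisome genes (y axis), 1 point per gene, filled where the adjusted p was under 0.05, with a bar at the list median. The 4 filled points are Abcd2, Acaa1a, Phyh and Mvk, and the Pex11a point lies apart from the other peroxins.

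Markers of red blood cell precursors moved with genotype. Of the 12 listed, 10 were measured, all 10 had lower means in the KO, and 4 passed (Hemgn, Rhag, Ermap and Trim10, named after their values were seen), against 0.841% of all genes. Their mean was 8.47 to 9.19 in KO livers and 9.65 to 9.80 in WT livers, without overlap. The mean of 7 hepatocyte markers was 12.40 to 12.58 in KO livers and 12.28 to 12.38 in WT livers. Of the 7, 0 passed the threshold and 2 had an unadjusted p under 0.05. Means were higher in the KO for 5 of them. Alb and Ttr, named after their values were seen, had lower means, by -0.05 ± 0.08 and -0.18 ± 0.11 (SE). All 5 B cell precursor markers and all 5 neutrophil markers also had lower means in the KO, with medians of -0.63 and -0.24, and 0 of them passed in limma, with 3 and 0 at an unadjusted p under 0.05. The part of the hepatocyte, B cell precursor and neutrophil markers in the peroxin values was not tested. The mean of the 10 red blood cell precursor markers (erythroid mean) was also entered in the fit as a covariate. The Pex11a differences were then 0.83 ± 0.65 (1419365_at) and -0.45 ± 0.57 (SE, 1449442_at), with limma adjusted p of 0.947 and 0.96. In that fit the marker mean and the genotype are nearly the same contrast, and the part of cell composition in the Pex11a values cannot be told apart from genotype.

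The genes whose pattern over the 8 livers was most like that of Pex11a (1449442_at), among 11402 genes above the median of all means, were Stc2, Aff4, Ctage5, Megf9 and Ppa1. Their Pearson correlations were 0.967 to 0.985 over all livers and 0.948 to 0.975 after each genotype's mean was taken out. The likeness was thus also seen among livers of the same genotype, in genes picked by the first correlation. For Pex11g (1430857_s_at) the 5 were Dstyk, Pax3, Ddr2, Psma4 and Fgfr4, with correlations of 0.911 to 0.932. They describe this probe set and not the gene, since it correlated at -0.678 with Pex11g probe set 1430856_at. Pax3 averaged 3.78 in KO and 3.79 in WT livers, close to the array medians. With 8 livers and this many genes such values are a description only.

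The gene ranges of 4 members overlap that of another protein-coding gene in the RefSeq table of GRCm38.p6, and these neighbours were named after their values were seen. The gene that overlaps Pex11a is Wdr93, which was not found on the array under that symbol. Adat2, a tRNA deaminase gene that overlaps Pex3, differed by 0.28 ± 0.30 (SE), and Pus10, a pseudouridine synthase gene that overlaps Pex13, by 0.10 ± 0.10. Tex45, which overlaps Pex11g, was at 2.63 in KO and 2.82 in WT livers on average, below the array medians, and differed by -0.19 ± 0.16. The limma adjusted p of the 3 neighbours were 0.74 to 0.798.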

How the data were processed

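Liver RNA of 8 mice was measured on Affymetrix arrays. The deposited values are log2 expression after RMA, per the submitters' processing notes, with neither software nor parameters stated there. They ran from 1.11 to 13.7. The 64 array controls were left out, which left 45037 probe sets, of which 34945 have 1 gene in the platform annotation, 932 have several and 9160 are not listed. Arrays give no read depth, and the number of arrays limits the precision.

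A linear model of genotype alone was fitted to every probe set (limma 3.58.1, R 4.3.3; moderated test, both sides), with Benjamini-Hochberg adjustment over all probe sets and a threshold of 0.05. Differences are KO minus WT. P-values set each difference between group means against the spread between these mice, with variances moderated over all probe sets. The fit was tested on simulated data. For a gene in the lists the probe set with the highest mean was used. Genes named were Hsd17b4, all members, up to 4 genes past the threshold in each list or otherwise the 2 with the lowest p, and the 5 genes most like Pex11a and Pex11g. Plin1, the neighbour of Pex11a, was to be named and was not found under its symbol. The members and lists were chosen with earlier results of these data known. Marker lists of Kupffer cells and bile duct had 0 genes past the threshold in limma and 0 at an unadjusted p under 0.05, with median differences of 0.01 and 0.11. Alternatives changed the dim filter, the scaling, the variance model, array weights, covariates and the livers used. Same-numbered livers correlated at -0.0039 to 0.259 after group means were removed, so the numbers were not taken as pairs.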

Additional observations from a re-analysis of the deposited data

Results flagged for a closer look

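Of 66 groups of 4 livers checked for a value far from the others, 4 held one, where chance gives about 1 in 20. The mean deviation of the 7 membrane and import genes was 0.321 in KO3, against 0.0705 to 0.0719 in the other KO livers. Pex13 probe set 1422472_at was 2.45 in WT1, against 3.05 to 3.10 in the other WT livers, on a probe set below the array medians. The second Hsd17b4 probe set, 1455777_x_at, was 3.06 in KO1, against 1.73 to 1.88 in the other KO livers, and 8.78 in WT3, against 7.80 to 7.96 in the other WT livers.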

How the results depend on the processing

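The count of 0 peroxin probe sets past the threshold in limma held under all 19 alternatives, with 0 to 4 at an unadjusted p under 0.05. The Pex11 pair minus the 7 membrane and import genes, as a difference of group means, lay between 0.24 and 0.39 under its 21 alternatives. Leaving out single livers gave 0.27 to 0.39. The lowest value, 0.24, came with the probe set of highest mean per gene, where the KO and WT livers overlapped. The count of 343 probe sets over the whole array was 914 with array weights, 15 with the replicate number as a block, 4 in replicates 1 and 2 alone, 527 with the Y-linked covariate and 0 with the erythroid covariate in limma (2208 at an unadjusted p under 0.05). Without single livers it ran from 9 to 489. The count of 4 other peroxisome genes was 8 with array weights, 0 with the replicate block (20 at an unadjusted p under 0.05), 0 in replicates 1 and 2 alone (11), 2 in replicates 3 and 4 alone and 0 with the erythroid covariate (7), and 0 to 3 without single livers. The replicate block left the Pex11a differences at 0.95 and 0.79, with limma adjusted p of 0.237 and 0.287, and 3 of 8 livers correlated best with the liver of their own number. The alternatives for the other peroxisome genes and for Hsd17b4 were added after the data were seen. Hsd17b4 differed by -4.27 with the erythroid covariate (limma adjusted p 0.673) and passed under the other alternatives. The causes of these shifts were not tested.

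Signs turned in 38 of 415 alternative values of single probe sets, and no alternative brought a probe set past the threshold. In Pex11g, 1430857_s_at was at -0.011 with median centring, -0.063 with array weights, -0.14 in replicates 3 and 4 and -0.0054 with the Y-linked covariate, and 1429407_at at -0.014 with array weights and -0.11 in replicates 3 and 4. In replicates 1 and 2 alone Pex16 1425021_a_at was at -0.054, Pex19 1416425_at at -0.065 and 1448332_at at -0.15, Pex5 1422063_a_at at -0.063, and Pex6 1424078_s_at at -0.035 and 1456302_at at -0.13. In replicates 3 and 4 alone Pex19 1455208_at was at 0.36 and Pex13 1422472_at at -0.080. With the erythroid covariate Pex11a 1449442_at was at -0.45, Pex16 1425021_a_at at -0.38, Pex19 1416425_at at -0.16 and 1448332_at at -0.20, Pex5 1422063_a_at at -0.62 and 1426770_at at -0.49, and Pex6 1456302_at at -0.018. Without single livers the ranges that crossed 0 were -0.023 to 0.15 (1429407_at), -0.046 to 0.054 (1430857_s_at), -0.030 to 0.18 (1416425_at), -0.046 to 0.16 (1448332_at), -0.50 to 0.18 (1455208_at), -0.010 to 0.26 (1422063_a_at), -0.0043 to 0.11 (Pex3 1417442_a_at), -0.073 to 0.15 (1422472_at), -0.0017 to 0.23 (Pex6 1438138_a_at) and -0.046 to 0.20 (1456302_at). The filter on dim probe sets left out 3 of the 22, which have no value there.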

Other observations

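Of the 15 PTS1 proteins 12 had higher means in the KO and 3 lower. The 2 with the lowest differences were named after their values were seen. Uox, the urate oxidase, averaged 10.52 ± 0.47 in KO and 11.38 ± 0.31 in WT livers (SD, n = 4 each), a difference of -0.86 ± 0.23 (SE) with a limma adjusted p of 0.146. Hao1, a hydroxyacid oxidase, averaged 9.51 ± 0.50 in KO and 9.96 ± 0.11 in WT livers, a difference of -0.46 ± 0.21 with a limma adjusted p of 0.447. Cat, the catalase, differed by 0.04 ± 0.13.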
